A study of Mus musculus with 2 samples.

Results

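The nuclear genes of the mitochondrial respiratory chain and ATP synthase were followed in CD4+ T cells of mouse spleen. They were taken by name, as every gene symbol beginning with Nduf, Uqcr, Cox4 to Cox8 or Atp5 and the 4 succinate dehydrogenase genes Sdha, Sdhb, Sdhc and Sdhd, in tables of 24346 symbols. Of 92 symbols so named, 86 had a mean of at least 1 FPKM (fragment counts corrected for transcript length and for the size of the library) over the libraries and were compared, beside 10663 genes tested in all. They held 77 subunits of complexes I to V (36 of complex I, 4 of complex II, 8 of complex III, 14 of complex IV and 15 of complex V), 7 Ndufaf assembly factors of complex I, and Atp5s and Atp5sl, which are related to ATP synthase subunits by name.

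Both groups were CD4+ T cells sorted from spleen at day 14 from mice labelled HFD-MI. One group was treated with probucol, a lipid-lowering drug that is also an antioxidant, and the other received no treatment. A single library stands for each group, 1 against 1. The labels give neither the number of animals, nor their genotype or age, nor a control without HFD-MI, and the word HypoE carried by both tables is not explained there.

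Oxidative phosphorylation is the pathway by which mitochondria make ATP. Complexes I and II pass electrons from NADH and succinate to ubiquinone, complex III passes them to cytochrome c and complex IV to oxygen, and complex V uses the proton gradient built by complexes I, III and IV to make ATP. Resting and memory T cells lean on this pathway, while recently activated T cells add strong glycolysis. Most subunits are encoded in the nucleus and the rest in mitochondrial DNA, and dedicated assembly factors, which are not part of the finished enzyme, put the complexes together.

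The T cell identity of both libraries was plain from Cd4, at 334 FPKM in the probucol library and 284 FPKM in the untreated one, and from Cd3e, at 478 and 494 FPKM. Where values are given as a pair, the probucol library comes first. The 7 CD4 T cell markers summed to 3294 and 3406 FPKM. Markers of other cells were not even between the libraries. All 7 of the B cell markers that were tested (of 11) were higher with probucol. All 11 summed to 73.4 against 25.7 FPKM, with Pax5 at 0 in both libraries and Blnk at 0 untreated. All 8 erythroid markers in the tables (11 listed) were lower, summing to 295 against 980 FPKM. Of 8 neutrophil markers 7 were higher, and all 8 summed to 1072 against 955 FPKM. Of 5 natural killer markers tested 4 were lower, and all 7 listed summed to 7.78 against 18.03 FPKM. The part of these cells in the values below was not tested. In such bulk samples fewer cells of a type and less RNA per cell cannot be told apart. From the spacing of low FPKM values, the estimated depth was 9.90e+06 fragments with probucol and 9.86e+06 untreated. Even so, 14289 symbols were above 0 FPKM with probucol and 16876 untreated. The cause of that difference was not tested, and it bears on low genes and on those listed at 0 in 1 library. A group of 1 library has no spread over replicates, so no test between the groups was made. The 95% intervals given for single genes are exact binomial intervals on estimated fragments and cover counting error only.

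The respiratory chain was among the more abundant parts of the transcriptome. Of the 86 members, 69 had a mean of 100 FPKM or more, 13 lay between 10 and 100 FPKM and 4 were below 10 FPKM. Together they made up 3.36% of all FPKM with probucol and 3.63% untreated, with summed levels of 25116 and 27523 FPKM. FPKM gives short transcripts more weight, and of the estimated fragments the members took 1.61% and 1.73%. The most abundant member was Cox8a, a small subunit of cytochrome c oxidase, followed in order of mean level by Cox4i1 and Cox6b1. Within complex I every subunit was above every Ndufaf factor. Complex I accessory subunits had mean levels from 47.9 to 767 FPKM, while the Ndufaf factors reached from 5.45 to 33.7 FPKM. Levels of the members followed much the same order in both libraries, with a Spearman rho of 0.996 across the 86 genes against 0.957 across all 10663, a description in which both libraries share each gene's length.

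**Figure D1:**
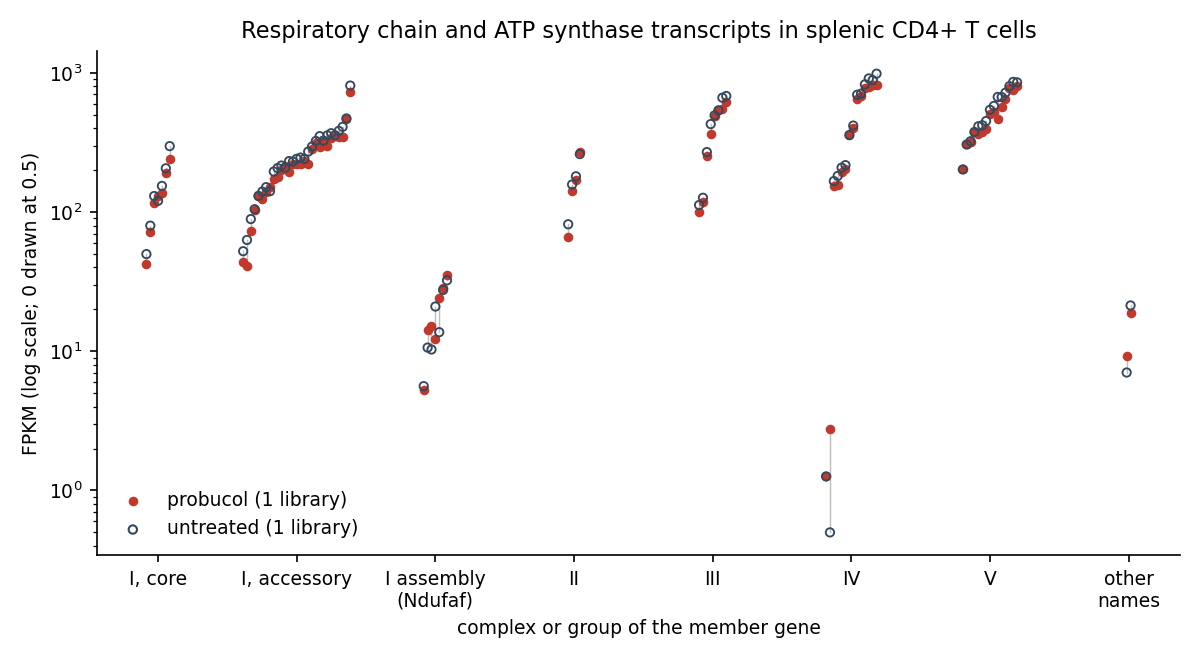
FPKM of each of the 86 members (log scale, 0 drawn at 0.5) by complex, with filled points for the probucol library and open points for the untreated library. Ndufaf assembly factors lie between 5.28 and 35.1 FPKM, below every complex I, II, III and V subunit, and Cox6b2 is the only member listed at 0 in a library.

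The 6 symbols below 1 FPKM were isoforms known from other tissues. Cox4i2, a lung isoform, Cox8b, a heart and muscle isoform, Cox7b2 and Ndufa4l2 were listed at 0 in both libraries. Cox8c was listed at 0 with probucol and at 0.745 FPKM untreated, and Cox6a2, the heart and muscle isoform of Cox6a1, at 0.889 FPKM with probucol and at 0 untreated. Cox7a1, another heart and muscle isoform, lay just inside the limit at 1.27 and 1.26 FPKM, an estimated 3 fragments in each library. Cox6b2, the testis isoform of Cox6b1, was at 2.74 FPKM with probucol and listed at 0 untreated, an estimated 6 fragments against 0, and met the limit through the probucol library alone. Their counterparts of most tissues, Cox4i1, Cox6a1, Cox6b1, Cox7a2 and Cox8a, ranged from 193 to 985 FPKM. The cells thus held the transcripts of the common isoforms, with the tissue-specific ones near or at 0.

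Most members were slightly lower with probucol. The median log2 ratio of probucol over untreated, on FPKM + 1, was -0.11 over the members and 0.02 over all genes tested. Of the 86 members 17 were higher and 69 lower, a share of 19.8% higher, where 52.7% of all genes tested were higher and 47.3% lower. Large ratios were few. One member, Cox6b2, was at least 2-fold higher and 0 were at least 2-fold lower, where 1.62% and 1.98% of all genes were. At the 1.5-fold limit Cox6b2 and Ndufaf6 were higher, where 5.99% of all genes were, and Ndufaf2 and Ndufs5 lower, where 5.53% were. These shares of members are near or below the background. The SD of the ratios across genes was 0.29 for the members and 0.69 for all genes, whose ratios reached from -12.67 to 14.42. It was 1.40 for all genes of 100 FPKM or more and 0.55 for those at 10 to 100 FPKM. The members' SD holds Cox6b2 at 1.90. These SDs depend on extreme genes and do not show that the members were closer together than genes of like level.

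For 48 of the 86 members the counting interval lay below 1, for 7 above 1 and for 31 it held 1, where 23.4% of all genes lay below and 28.3% above. As shares these were 55.8% of members below and 8.14% above, close to the 55.0% and 10.3% among all genes of 100 FPKM or more and under 1000 bp. Members had more fragments than most genes, with a median of 2892.5 over both libraries, which narrows these intervals.

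Over all genes tested the ratio ran with transcript length and with level. Members had a median annotated length of 772.5 bp, against 2501 bp for all genes tested. Over all genes the trend of the log2 ratio on length was -0.15 at 400 bp, -0.12 at 600 bp, -0.08 at 1000 bp, 0.01 at 2000 bp and 0.07 at 4000 bp. The members' own medians did not climb with length below 2000 bp. Up to 500 bp the median was -0.09 for 12 members and -0.12 for all genes, from 500 to 800 bp -0.15 for 32 members and -0.12 for all, and from 800 to 1200 bp -0.10 for 15 members and -0.09 for all. From 1200 to 2000 bp it was -0.12 for 18 members and -0.03 for all genes, and from 2000 to 3000 bp 0.00042 for 8 members and 0.02 for all. With the trend removed the members' median was -0.03, with 33 of 86 higher. The 34 members of 1000 bp or more were at -0.10 before and -0.05 after removal of the trend, and the 52 shorter ones at -0.13 and -0.02. Of the 52 members under 1000 bp 9.62% were higher. Abundant genes as a whole were also lower: of the 1180 genes at 100 FPKM or more 34.7% were higher, and of the 427 of these under 1000 bp 21.8%. The median of the short subunits was thus close to the trend of all short transcripts, and the part of length in the members' ratios was not tested further.

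**Figure D2:**
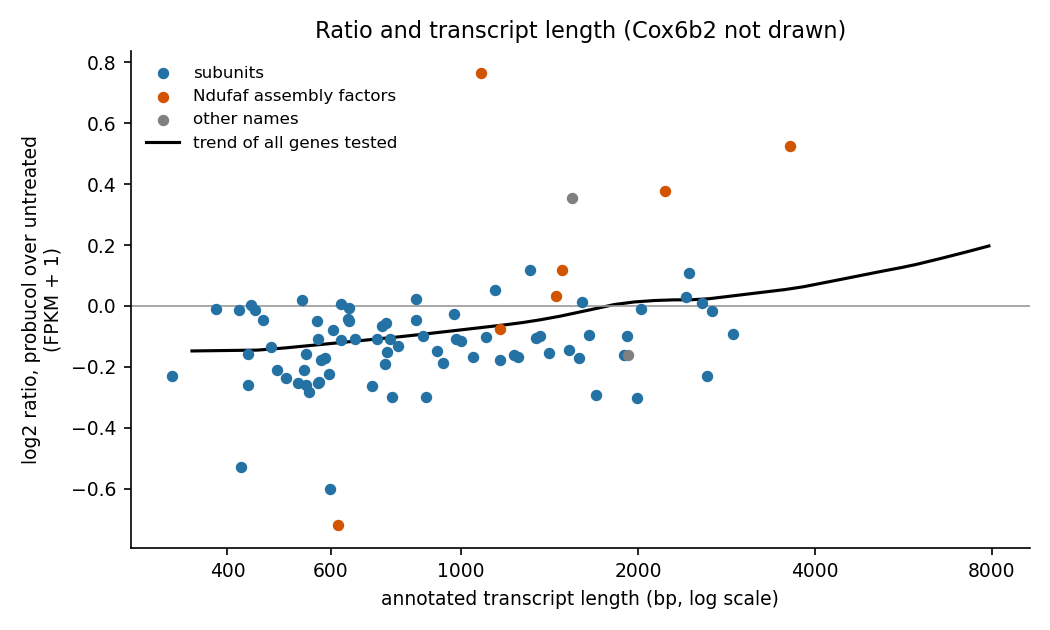
Log2 ratio of probucol over untreated (FPKM + 1) of the members against annotated transcript length in bp (log scale), for subunits, Ndufaf factors and the 2 other names, with the lowess trend of all genes tested as a line; Cox6b2 is not drawn. The line climbs from -0.15 at 400 bp to 0.07 at 4000 bp, and most short subunits lie around it.

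Complex I takes electrons from NADH, and its 7 nuclear core subunits carry the flavin and the iron-sulphur clusters. Of these 6 were lower and 1 higher with probucol, with a median log2 ratio of -0.17 (-0.12 with the length trend removed). All 7 counting intervals excluded 1, with 6 below and 1 above. Of all genes 23.4% lay below 1 and 28.3% above, and of those at 100 FPKM or more 46.8% and 20.8%. The summed level of the core subunits was 930 FPKM in the probucol library and 1038 FPKM in the untreated one. Ndufs7, which holds the last iron-sulphur cluster before ubiquinone, was the highest of them and had the lowest ratio. It was at 242 FPKM in the probucol library and 297 FPKM in the untreated one, 1.23-fold lower with an interval of 1.15 to 1.32. Ndufs1, the largest core subunit, was at 42.3 and 49.9 FPKM, 1.18-fold lower (1.08 to 1.28). Ndufv2, which carries an iron-sulphur cluster beside the flavin subunit Ndufv1, was the 1 core subunit above 1, at 131 and 120 FPKM (ratio 1.09, 1.01 to 1.17). Its partner Ndufv1 was at 72.1 and 79.8 FPKM, below 1 with an interval of 0.827 to 0.988. Ndufs8, another iron-sulphur subunit, had the next highest ratio of the core after Ndufv2, at 191 and 206 FPKM with an interval of 0.862 to 0.995.

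The 29 accessory subunits of complex I surround the core and are needed for its stability. Of these 26 were lower and 3 higher, with a median log2 ratio of -0.13 and summed levels of 6963 and 7604 FPKM. With the length trend removed the median was -0.03 and 11 were higher. Of the intervals 15 (51.7%) lay below 1, 1 (3.45%) above and 13 held 1. Of the 29 subunits 22 were under 1000 bp. Of all genes at 100 FPKM or more and under 1000 bp 55.0% lay below and 10.3% above. Ndufa3, in the membrane arm, was the most abundant accessory subunit at 725 and 809 FPKM. Ndufab1, the mitochondrial acyl carrier protein, was at 152 and 141 FPKM (ratio 1.08, 1.03 to 1.13). Ndufb2 was at 213 and 208 FPKM, with a ratio of 1.02 whose interval of 0.981 to 1.06 held 1. At the other end stood Ndufs5 and Ndufb3, both of the membrane arm. Ndufb3 was at 221 and 272 FPKM, 1.23-fold lower (1.14 to 1.33).

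Ndufs5 was the subunit with the lowest ratio of the respiratory chain and the 1 subunit more than 1.5-fold lower. It was at 41.2 FPKM in the probucol library and 63.0 FPKM in the untreated one, an estimated 157 and 240 fragments and 1.53-fold lower (1.24 to 1.88). It no longer passed 1.5-fold with the length trend removed, with both libraries scaled to the same FPKM sum or with a pseudocount of 5. The gene has 3 exons on the reverse strand of chr4:123712710-123718202 (GRCm38, GENCODE M21, identifier ENSMUSG00000028648.13). Its value depends on how reads were placed, because the pseudogene BC002163 holds nearly the same coding sequence. BC002163 was listed at 92.6 FPKM in the probucol library and 103 FPKM in the untreated one, above Ndufs5 itself in both libraries. Over 319 of the 321 coding bases of Ndufs5 the copies differed at 2 bases. The stretch of 60 bases that holds both differences, from coding base 63 of Ndufs5 (GENCODE M21 transcripts, 5′ to 3′), is shown because reads within it can be told apart only where they cover the differing bases, which are in capitals:
Ndufs5: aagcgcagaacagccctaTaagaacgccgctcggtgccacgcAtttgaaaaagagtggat
BC002163: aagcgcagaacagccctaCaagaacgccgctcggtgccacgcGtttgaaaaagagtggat
A read of this region that misses both capitals could have been given to either gene, so the level of Ndufs5 and its ratio are uncertain.

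Near-identical copies touched other members as well. In all 24 of the 86 members shared a stretch of at least 150 bases at 95% identity or more with another gene, 8 of them in complex V, 8 among complex I accessory subunits and 4 in complex IV. Their median log2 ratio was -0.09, against -0.11 for the 62 without such a stretch. Cox7c, for one, shared 192 bases without a mismatch with Gm12338, which was listed at 2.92 FPKM in the probucol library and 0.793 FPKM in the untreated one. Exons of 27 members overlapped a gene on the other strand, with a median of -0.15 against -0.11 for the other 59. The strand setting of the counting is not given, so reads within the overlapping bases may have been given to either gene.

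The Ndufaf assembly factors had a median of the other sign from the subunits, a difference that 1 library per group cannot test. Of 7 factors 5 were higher with probucol and 2 lower, with a median log2 ratio of 0.12 (0.15 with the length trend removed) against -0.15 for the 36 complex I subunits, of which 4 were higher. The difference of these medians was 0.26. Counting intervals lay above 1 for Ndufaf4, Ndufaf6 and Ndufaf7, below 1 for Ndufaf2, and held 1 for Ndufaf1, Ndufaf3 and Ndufaf5. Of all genes 28.3% lay above 1 and 23.4% below. The SD across genes was 0.48 for the factors, 0.29 for the members as a whole and 0.55 for all genes at 10 to 100 FPKM. The factors had fewer fragments than the subunits and a median length of 1451 bp.

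Ndufaf6, a factor for the early Q module of complex I that is related to phytoene synthases, had the highest ratio. It was at 24.0 FPKM in the probucol library and 13.7 FPKM in the untreated one, an estimated 208 and 119 fragments and a ratio of 1.75 (1.39 to 2.21). Its 9 exons lie on the reverse strand of chr4:11051045-11076205. Ndufaf4, which acts with Ndufaf3 in the same early module, was at 15.3 and 10.3 FPKM (ratio 1.48, 1.29 to 1.70), while Ndufaf3 itself was at 35.1 and 32.3 FPKM, the most abundant factor, with a ratio of 1.09 (0.949 to 1.25). Ndufaf7, a mitochondrial methyltransferase that acts early in assembly, was at 14.1 and 10.6 FPKM (ratio 1.33, 1.11 to 1.60). Parts of Ndufaf7 match other genes, so its value is uncertain.

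Ndufaf2, a paralogue of the accessory subunit Ndufa12 that acts late in assembly, went the other way. It was at 12.3 FPKM in the probucol library and 20.9 FPKM in the untreated one, an estimated 49 and 84 fragments, 1.70-fold lower with a wide interval of 1.19 to 2.49. It too fell short of 1.5-fold with a pseudocount of 5. With 617 bp it has the shortest transcript of the 7 factors, and it overlaps B230220B15Rik on the other strand at chr13:108002715-108158623. Ndufaf1, a chaperone of the membrane arm, was at 28.2 and 27.5 FPKM (ratio 1.02, 0.879 to 1.19). Ndufaf5, which hydroxylates Ndufs7, was the least abundant at 5.28 and 5.62 FPKM, with an interval of 0.628 to 1.42.

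Of the 9 other complex I assembly genes tested (12 listed), 3 were higher and 6 lower, with a median log2 ratio of -0.05. Nubpl, which delivers iron-sulphur clusters to complex I, was the 1 gene past 1.5-fold. It was at 5.90 FPKM in the probucol library and 11.1 FPKM in the untreated one, 1.89-fold lower (1.56 to 2.30). Ecsit was at 31.4 and 41.9 FPKM, 1.34-fold lower (1.18 to 1.51), and the other 7 intervals held 1. Timmdc1, a membrane arm factor, had the highest ratio at 8.15 and 6.52 FPKM, with an interval of 0.935 to 1.67 that held 1. The median of these 9 genes was thus below 0, where that of the Ndufaf factors was above.

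**Figure D3:**
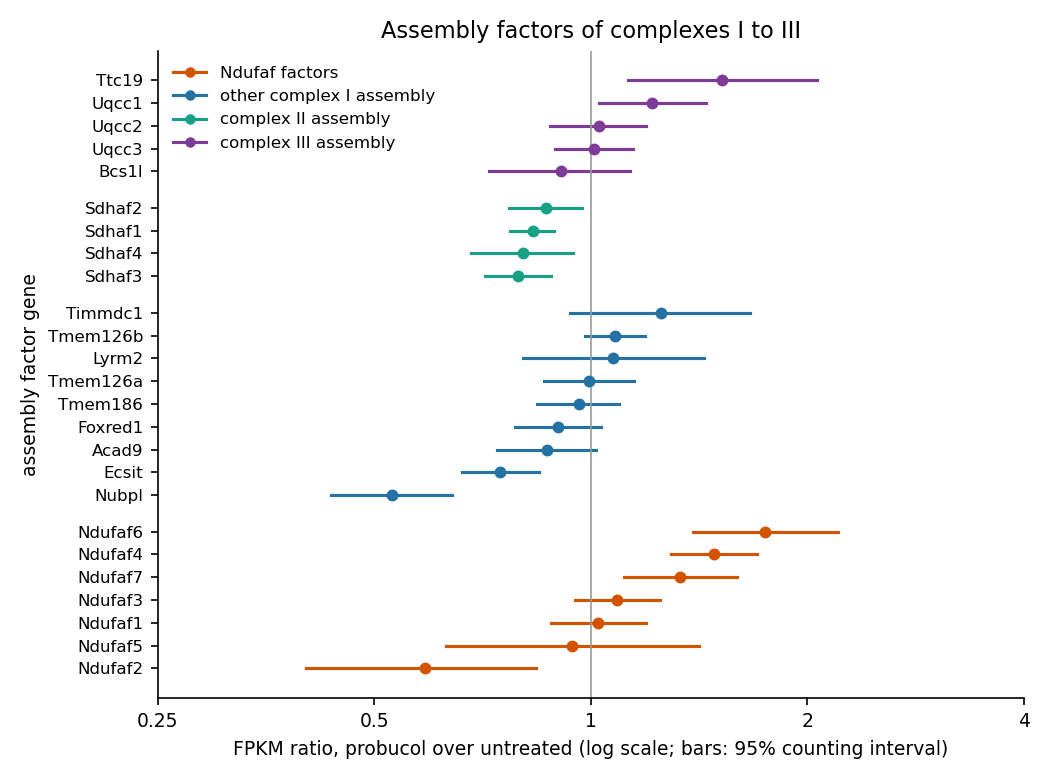
FPKM ratio of probucol over untreated (log scale) for assembly factors of complexes I to III, with bars for the 95% counting interval. Ndufaf4, Ndufaf6, Ndufaf7, Ttc19 and Uqcc1 lie above 1 with their bars, Ndufaf2, Nubpl and Ecsit below, and all 4 complex II factors below.

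Complex II, succinate dehydrogenase, joins the tricarboxylic acid cycle to the chain, and all its subunits are nuclear. Sdhc, a membrane anchor that binds haem, was at 66.1 FPKM in the probucol library and 81.6 FPKM in the untreated one, 1.24-fold lower (1.14 to 1.33). Sdhd, the other anchor, was at 141 and 157 FPKM, 1.12-fold lower (1.04 to 1.20). Sdha, the flavin subunit that oxidises succinate, was at 169 and 180 FPKM, 1.07-fold lower (1.02 to 1.11). Sdhb, the iron-sulphur subunit and the most abundant, was the 1 subunit above 1, at 271 and 261 FPKM with an interval of 0.981 to 1.10. The intervals of the 3 lower subunits were thus below 1. The median log2 ratio of all 4 was -0.13, and -0.11 with the length trend removed. All 4 complex II assembly factors were lower too, each with an interval below 1, at a median of -0.29. Of all genes 23.4% had an interval below 1, and of those at 100 FPKM or more 46.8%. Sdhaf3 was at 15.2 and 19.3 FPKM, 1.26-fold lower (1.14 to 1.41), and Sdhaf2, which adds the flavin to Sdha, at 28.3 and 32.7 FPKM, 1.15-fold lower (1.03 to 1.30). No factor of this list was past 1.5-fold.

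Complex III, the cytochrome bc1 complex, had 8 members, of which 7 were lower and 1 higher, with a median of -0.12 (-0.07 with the length trend removed). Its small subunit Uqcr10 was at 554 FPKM in the probucol library and 662 FPKM in the untreated one, 1.20-fold lower (1.11 to 1.29). Uqcrq, another small subunit, was at 363 and 428 FPKM, 1.18-fold lower (1.08 to 1.28). At the top of the list the libraries were close. Uqcrb, the ubiquinone-binding subunit, was at 545 and 537 FPKM with an interval of 0.948 to 1.09, and Uqcr11 at 490 and 494 FPKM with one of 0.911 to 1.08. Uqcrh, the hinge protein, was the most abundant at 620 and 681 FPKM. Of 5 assembly factors 4 were higher, where 52.7% of all genes tested were. Counting intervals lay above 1 for 2 of the factors, where 28.3% of all genes did, and held 1 for 3. Ttc19, which clears fragments of the Rieske protein Uqcrfs1, was at 4.41 and 2.90 FPKM (ratio 1.52, 1.13 to 2.06), and Bcs1l, which inserts the Rieske protein, at 10.3 and 11.4 FPKM with an interval of 0.721 to 1.13. Cytochrome c (Cycs), which carries electrons from complex III to complex IV, was at 85.4 and 76.8 FPKM (ratio 1.11, 1.05 to 1.18), and cytochrome c1 (Cyc1), a haem subunit of complex III outside the member names, at 166 and 173 FPKM, with an interval of 0.904 to 1.02.

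Complex IV, cytochrome c oxidase, passes electrons to oxygen, and its catalytic core is encoded in mitochondrial DNA, which was not analysed here. Of 14 nuclear members 12 were lower and 2 higher, with a median of -0.10, and with the length trend removed 8 were higher at a median of 0.01. Cox8a was at 810 FPKM in the probucol library and 985 FPKM in the untreated one, 1.22-fold lower (1.15 to 1.28). Cox7c was at 157 and 182 FPKM and Cox6b1, which bridges the dimer, at 787 and 910 FPKM, both 1.16-fold lower, with intervals of 1.02 to 1.31 and 1.09 to 1.23. The members above 0 in log2 ratio were the low isoforms Cox6b2 and Cox7a1. Among the abundant subunits Cox5a stood highest, at 356 and 357 FPKM with an interval of 0.927 to 1.07. Ndufa4, once counted in complex I and now placed in complex IV, was at 685 and 708 FPKM, with an interval of 0.904 to 1.04.

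The 24 complex IV assembly genes tested had a median of -0.05, 9 higher and 15 lower. Pet117 was the 1 gene past 2-fold higher, where 1.62% of all genes were. It was at 2.80 FPKM with probucol and listed at 0 untreated, an estimated 13 fragments against 0, and met the limit of 1 FPKM through the probucol library alone. Pet100 had the lowest ratio, at 24.7 and 36.0 FPKM, 1.45-fold lower (1.17 to 1.82). Counting intervals lay above 1 for 6 of these genes and below 1 for 5, and 13 held 1. Of all genes 28.3% lay above 1 and 23.4% below, both larger shares than in this list. The SD across the 24 genes was 0.47, against 0.29 for the members. Each of these SDs holds 1 gene listed at 0 untreated, Pet117 at a log2 ratio of 1.93 and Cox6b2 at 1.90. They do not compare the spread of the other genes.

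Complex V, the ATP synthase, had 15 members, of which 12 were lower and 3 higher, with a median of -0.15 and summed levels of 7373 and 8181 FPKM. With the length trend removed the median was -0.05 and 3 were higher. Atp5e, the epsilon subunit of the central stalk, had the lowest ratio. It was at 464 FPKM in the probucol library and 671 FPKM in the untreated one, an estimated 938 and 1354 fragments and 1.44-fold lower (1.33 to 1.57). Its transcript of 421 bp, from 3 exons at chr2:174461072-174464105 on the reverse strand, is among the shortest of the members. The delta subunit of the same stalk, Atp5d, was at 363 and 413 FPKM, 1.14-fold lower (1.08 to 1.20), and the gamma subunit, Atp5c1, at 398 and 450 FPKM, 1.13-fold lower (1.08 to 1.18). All 3 subunits of the central stalk were thus lower, Atp5e by the most.

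In the catalytic head and the peripheral stalk the ratios were mixed. Atp5b, the catalytic beta subunit and the most abundant of complex V, was at 797 FPKM in the probucol library and 854 FPKM in the untreated one, 1.07-fold lower (1.05 to 1.10). Its partner alpha, Atp5a1, was at 379 and 376 FPKM with an interval of 0.979 to 1.04. Atp5o, the stalk subunit known as OSCP, had the highest ratio of complex V at 310 and 305 FPKM, with an interval of 0.952 to 1.08, followed by the stalk subunit Atp5f1 at 204 and 202 FPKM. Atp5j, another stalk subunit, was at 754 and 860 FPKM, 1.14-fold lower (1.09 to 1.19). Atp5k, the e subunit that helps pair 2 synthases into a dimer, was at 570 and 669 FPKM, 1.17-fold lower (1.05 to 1.31).

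The c-ring, the rotor in the membrane, is made of 1 mature protein from 3 genes that differ in their import signal. Atp5g1 was at 318 FPKM in the probucol library and 322 FPKM in the untreated one, Atp5g2 at 373 and 420 FPKM, and Atp5g3 at 502 and 542 FPKM. Atp5g3 gave 42.1% of their summed FPKM with probucol and 42.2% untreated, Atp5g2 31.2% and 32.7%, and Atp5g1 26.7% and 25.1%. The order of the 3 genes was the same in both libraries. Of 5 genes for assembly or inhibition of complex V 3 were higher and 2 lower. Atpif1, the inhibitor that stops the enzyme from running backwards, was at 36.1 and 50.4 FPKM, 1.40-fold lower (1.07 to 1.81), and the assembly factor Tmem70 was at 34.7 and 31.6 FPKM, with an interval of 0.968 to 1.25.

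Outside the complexes, Atp5s, a coupling factor also called factor B, was at 9.26 FPKM in the probucol library and 7.04 FPKM in the untreated one, an estimated 123 and 93 fragments. Atp5sl, which takes part in complex I assembly in spite of its name, was at 18.9 and 21.3 FPKM, with an interval of 0.762 to 1.03.

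**Figure D4:**
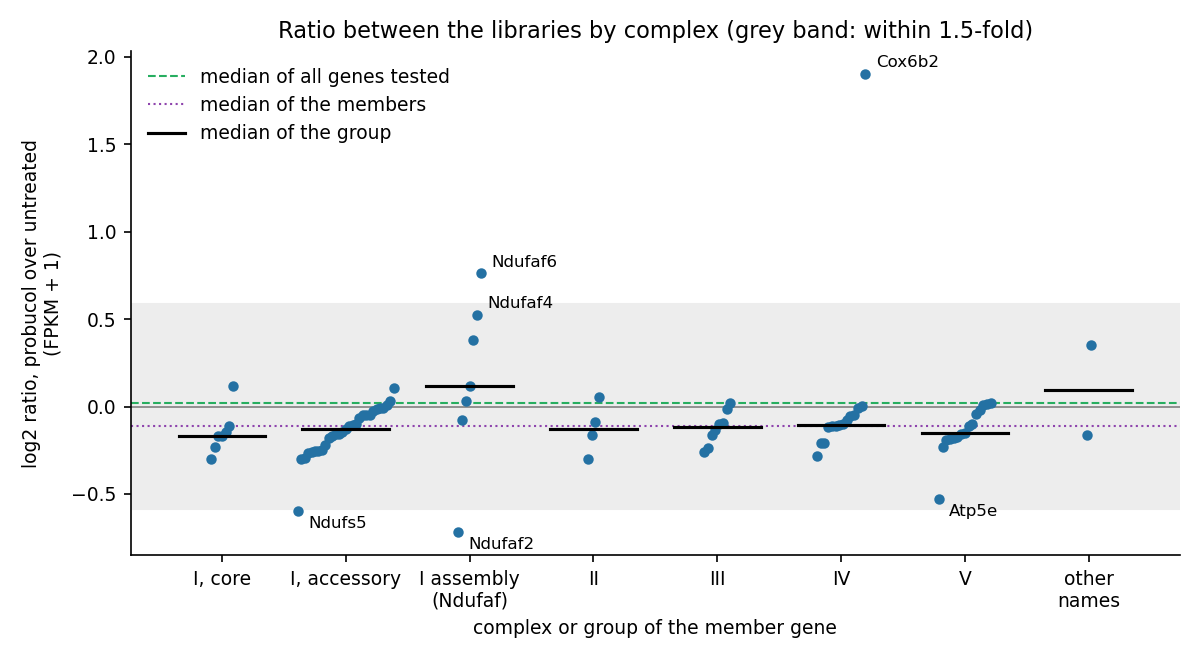
Log2 ratio of probucol over untreated (FPKM + 1) of each member by complex, with black bars for group medians, a dashed line for the median of all genes tested, a dotted line for that of the members, and a grey band for ratios within 1.5-fold. Every complex has a median below 0, from -0.17 in the complex I core to -0.10 in complex IV (0.01 there with the length trend removed), and the Ndufaf factors have one of 0.12.

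Genes that feed or steer the pathway stood closer to the median of all genes. Over 96 such genes, assembly factors and carriers included, the median was -0.02, with 43 higher and 53 lower. Their median length was 1766 bp, against 772.5 bp for the members. With the length trend removed their median was -0.0014 and that of the members -0.03, so much of the contrast was gone. The 13 genes of the tricarboxylic acid cycle, which makes NADH and succinate, split 6 higher and 7 lower. Suclg1 was highest at 148 FPKM in the probucol library and 118 FPKM in the untreated one (ratio 1.26, 1.17 to 1.34), and fumarase (Fh1) lowest at 50.5 and 57.7 FPKM, 1.14-fold lower (1.06 to 1.23). The 10 ubiquinone synthesis genes split 5 and 5. Coq4 was at 4.34 and 2.69 FPKM (ratio 1.61, 1.10 to 2.35), and Adck3, a regulatory kinase-like protein of ubiquinone synthesis, at 10.1 and 14.6 FPKM, 1.45-fold lower (1.26 to 1.65). Of 7 carriers and uncoupling genes 4 were lower, with a median of -0.13, as low as that of the members (-0.11). Counting intervals lay below 1 for 4 of the 7 and above 1 for 2. The outer membrane channel Vdac1 was at 51.5 and 37.7 FPKM (ratio 1.36, 1.21 to 1.54), and the ADP/ATP carrier Slc25a4 at 129 and 155 FPKM, 1.20-fold lower (1.14 to 1.27).

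Among 17 regulators of mitochondrial biogenesis 9 were higher and 8 lower, with a median of 0.08. Tfb1m, which methylates mitochondrial ribosomal RNA, had the lowest ratio of the pathway genes. It was at 3.65 FPKM in the probucol library and 10.1 FPKM in the untreated one, 2.77-fold lower (1.95 to 4.05). Gabpb2, a subunit of the ETS factor GABP, was highest at 4.12 and 2.22 FPKM (ratio 1.86, 1.55 to 2.24). Its DNA-binding partner Gabpa was at 12.0 and 13.7 FPKM and Nrf1, nuclear respiratory factor 1, at 33.8 and 37.5 FPKM. The coactivator Ppargc1a was at 0.080 and 0.160 FPKM, too low to be compared. Gabpa, Nrf1 and Ppargc1a were added after their values were seen.

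NRF1, GABP and YY1 are the textbook activators of respiratory chain genes, so the promoters of the members were searched for the cores of their binding sites: GCATGCG for NRF1, CCGGAAG for ETS factors such as GABP, and AAGATGG for YY1, each on both strands. RefSeq promoter entries (GRCm38.p6) were matched for 74 of the 86 members, and among the others Atp5a1, Cox4i1, Cox6c, Ndufa2, Ndufaf6, Ndufb9, Ndufs1, Sdhc, Uqcrb, Uqcrc2 and Uqcrq had no entry. In the 250 bases before the start the NRF1 core was found in 10 members, 13.5%, against 6.79% of the 8132 genes tested with an entry and 3.43% of all 27025 entries. The ETS core was found in 13 members, 17.6%, the same share as the 17.6% of genes tested and above the 7.83% of all entries. The YY1 core was found in 2 members, 2.70%, against 5.45% of genes tested, but in the 50 bases after the start it was in 9 members, 12.2%, against 3.89%. The first 20 bases after the start were found in an annotated transcript of the gene for 57 of 72 members checked. Being found anywhere in the transcript was enough, so this does not fix where the start lies. For the others the split into before and after the start is less sure still. A match is a run of letters and not a bound site.

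The windows of 60 bases below show where the letters lie in members of several complexes, 5′ to 3′ on the gene's strand, with motif letters in capitals. Atp5e (chr2:174464171-174464230, reverse strand) and Uqcr11 (chr10:80406855-80406914, reverse) hold an ETS core, Ndufa6 (chr15:82354342-82354401, reverse) an NRF1 core, and Atp5l (chr9:44920933-44920992, reverse) both. Of the assembly factors, Ndufaf4 (chr4:24897945-24898004, forward) holds an NRF1 core and Ndufaf1 (chr2:119662835-119662894, reverse) an ETS core. In Atp5l and Ndufaf4 the NRF1 core overlaps its own reverse complement, giving a run of 8 capitals:
Atp5e: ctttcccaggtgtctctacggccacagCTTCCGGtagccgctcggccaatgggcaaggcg
Uqcr11: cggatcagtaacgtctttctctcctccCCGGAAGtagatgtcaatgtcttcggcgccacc
Ndufa6: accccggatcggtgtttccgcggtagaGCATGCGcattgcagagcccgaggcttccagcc
Atp5l: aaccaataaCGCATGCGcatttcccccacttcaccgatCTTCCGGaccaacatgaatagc
Ndufaf4: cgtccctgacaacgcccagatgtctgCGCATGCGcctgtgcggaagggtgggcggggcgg
Ndufaf1: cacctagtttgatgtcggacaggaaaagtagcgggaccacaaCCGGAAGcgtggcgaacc
All of these windows lie in front of the annotated start and outside annotated exons.

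The ratio between the libraries differed little with these letters. Members with an NRF1 core before the start had a median log2 ratio of -0.13 (10 genes) and those without one of -0.11 (64 genes). Members with an ETS core were at -0.16 (13 genes) against -0.10 (61 genes). Level went with the letters more than the ratio did, with a median mean level of 567 FPKM for members with an ETS core and 211 FPKM for those without. Of the windows shown, Atp5e and Uqcr11 both hold an ETS core and had ratios of 0.693 and 0.991, and Ndufa6 and Ndufaf4 both hold an NRF1 core and had ratios of 0.992 and 1.48.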

How the data were processed

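RNA of 2 libraries, 1 per group, was sequenced. Per the labels' protocols, total RNA was made into full-length cDNA (SMART-Seq HT) and Nextera libraries, and no molecular identifiers are named. The deposited values are FPKM per gene symbol, per the file headers. Per the submitters' processing notes, TopHat2 2.1.1, Bowtie2, Cuffdiff 2.2.1 and mm10 were used, with no role or order. Annotation, filters and strand setting: not given in the sources used here.

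From the FPKM, log2 ratios of probucol over untreated were computed on FPKM + 1 for genes with a mean of at least 1 FPKM. Folds of single genes are ratios of FPKM. No count model was fitted to FPKM, and with 1 library per group no p-value was computed. Depth was estimated from steps in low FPKM of genes with 1 transcript of 800 to 10000 bp: a step of 0.0995 FPKM per fragment at 1 kb in both libraries with 220 bp subtracted, which placed 78.4% (probucol) and 78.0% (untreated) of low values within 0.1 of a whole number, where 20% would by chance. Fragments per gene used the median length of its GENCODE M21 transcripts so that genes with several transcripts have only rough numbers. The step search was tested on simulated data.

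Shared stretches were searched with BLAST 2.17.0 on the sense strand, and trends on length or level were fitted by lowess with a span of 0.3 (statsmodels 0.14.6, Python 3.11.15). Named members were, in each list, the 2 highest and 2 lowest ratios and the highest level, those past 1.5-fold, all of complex II, tissue isoforms and c-ring genes, and in pathway lists the highest and lowest ratio and those past 1.5-fold. Others were named after their values were seen. Members, lists and motifs were chosen with earlier results of these data known. Alternatives were other pseudocounts, filters, scalings and member sets. One member enters the counts and medians, but its own values are not reported here.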

Additional observations from a re-analysis of the deposited data

How the results depend on the processing

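No paired analysis was possible because each group has 1 library, and for the same reason no library could be left out. Over 14 alternatives 226 of 261 values stayed close to those reported. For medians close meant within 0.1 in log2 ratio, a limit about as large as the member median of -0.11. For counts it was wide: 639 genes at least 1.5-fold higher became 928 with a pseudocount of 0.1 and were held close. Some values could not move, such as counts of all genes under other member sets. The tally is thus a weak measure of stability. The member median ranged from -0.13 to -0.03, that of the Ndufaf factors from 0.08 to 0.15, and the difference between Ndufaf factors and complex I subunits from 0.17 to 0.29.

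With the length trend removed, medians were -0.0288 in complex I accessory subunits, 0.0132 in complex IV and -0.0459 in complex V, and 33 members were higher. With the trend on level removed, complex IV was at -0.0033 and 32 members were higher, and the mean ratio of complex IV, used for its median, was 0.0342. That mean holds Cox6b2 at 1.90 on 6 fragments against 0, and without the tissue isoforms the median was -0.11.

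Of members, 0 were at least 2-fold higher with a pseudocount of 5, with a mean of at least 5 or 100 FPKM, or without isoforms and paralogues. At 1.5-fold, 1 was higher with at least 5 FPKM or without isoforms, and 0 with at least 100 FPKM. At 1.5-fold, 0 were lower with a pseudocount of 5 or at least 100 FPKM, and 1 was lower with the same FPKM sum, with the length trend removed, or without members that share a stretch. At 100 FPKM or more 9 of 69 members were higher.

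Of all genes, 313 were at least 2-fold higher and 357 lower with a pseudocount of 0.1, against 173 and 211 as reported. A pseudocount of 5 gave 55 and 64 (206 and 200 at 1.5-fold), at least 5 FPKM 83 and 96 (325 and 272 at 1.5-fold), and at least 100 FPKM 27 and 18 (48 and 32 at 1.5-fold). With no filter 1071 were at least 1.5-fold lower. The cause of these shifts was not tested, beyond fewer genes under stricter filters. The level trend, the 100 FPKM limit and the removal of members with a shared stretch were chosen after seeing the data. Depth limits low members: Ndufaf5 rests on about 50 fragments per library and Cox7a1 on 3.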
